A study of Equus caballus with 78 samples.

Results

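The family of miR-103 and miR-107 was followed in vesicle RNA of horse plasma and synovial fluid. Its members were taken by name, as the entries eca-miR-103, eca-miR-107a and eca-miR-107b among the 690 horse microRNA names of each count table, so they are 3 of 690. In mammals these microRNAs lie in introns of genes for pantothenate kinases, the enzymes that start coenzyme A synthesis, and their mature forms are almost identical. They are expressed in many tissues. In mice they lower insulin sensitivity by repressing caveolin-1, and in human cells they repress Dicer, the enzyme that cuts microRNA precursors.

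The samples were extracellular vesicles, membrane-bound particles that cells shed into body fluids, from 4 horses numbered 2, 4, 6 and 8 in a model of osteoarthritis. Each horse gave plasma, synovial fluid of a joint labelled OA and synovial fluid of a joint labelled CTRL, with 26 libraries of each fluid. The 7 time points were 0, 10, 35, 42, 49, 56 and 63, with no unit in the labels, and horse 4 at time point 10 and horse 2 at time point 63 were not analysed here. How the disease was brought about, and the sex, age and breed of the horses, are not given in the labels. Every group comes from the same 4 animals, so plasma is not from animals without a joint labelled OA.

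Library totals ran from 2029244 to 12613572 reads, of which microRNA took 3916 to 1865513 reads. The median was 14055 microRNA reads in plasma, 42865.5 in OA-joint fluid and 26141 in CTRL-joint fluid, and 10 libraries, 9 of them plasma, had under 10000. In 3 plasma libraries, of horse 2 at time point 0, horse 6 at time point 10 and horse 8 at time point 63, microRNA was 5.86% to 18.6% of the library total, against 0.0882% to 1.39% in the other 23. A list of erythrocyte microRNAs took a median of 47.3% of the microRNA reads in plasma, 12.9% in OA-joint fluid and 15.3% in CTRL-joint fluid. A list of fibroblast and mesenchymal microRNAs took 2.50% in plasma, 19.6% in OA-joint fluid and 18.3% in CTRL-joint fluid, and the cartilage microRNA miR-140 had a median share of 0% in plasma, 0.00597% in OA-joint fluid and 0% in CTRL-joint fluid. All 26 plasma libraries carried the number 1 in their file names, as did 2 OA-joint and 8 CTRL-joint libraries, and the others the number 2. No label says what this number is. It was read here as a sequencing lane, and lane below means only that number.

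The counts of the family fell into 1 nearly shared signal and 1 that was separate. The counts of miR-103 and miR-107a were equal in 59 of 78 libraries, miR-103 was above in 19, and miR-107a was above in 0. The difference was over 5% of the miR-103 count in 11 libraries and at most 20.0% in all but 1 of the 78, plasma of horse 6 at time point 35, where miR-103 had 42 reads and miR-107a had 3. How the submitters counted reads that match both names is not given in the sources used here, so miR-103 stands below for that pair, and miR-107a is given only beside it. Over the 78 libraries miR-103 had 139801 reads, miR-107a 134887 and miR-107b 38315, together 5.55% of all microRNA reads. That share adds the nearly shared counts of miR-103 and miR-107a, so it may hold the same reads more than once.

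The miR-107b count was at or below that of miR-103 in 76 of 78 libraries. It did not follow miR-103 as a fixed part of it. In 62 libraries miR-103 had at least 90 reads, and in 13 of these miR-107b had 6 reads or fewer, at most 1.97% of the miR-103 count. In the other 49 it stood at 9.51% to 99.8% of the miR-103 count, with a median of 49.7%. These 13 libraries with almost no miR-107b were 5 of 16 in plasma, 5 of 24 in OA-joint fluid and 3 of 22 in CTRL-joint fluid. By animal they were 7 of 16 libraries of horse 2, 5 of 16 of horse 4, 0 of 14 of horse 6 and 1 of 16 of horse 8. In OA-joint fluid of horse 2 at time point 56, for example, miR-103 had 722 reads and miR-107b had 0 of 80090 microRNA reads, where 3 reads would have been 37.5 CPM (counts scaled to 1000000 microRNA reads). The 2 libraries with more miR-107b than miR-103 were CTRL-joint fluid of horse 4 at time point 56, with 89 and 4 reads, and of horse 6 at time point 63, with 198 and 79 reads. Intervals and limits for single libraries cover counting error only.

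**Figure D1:**
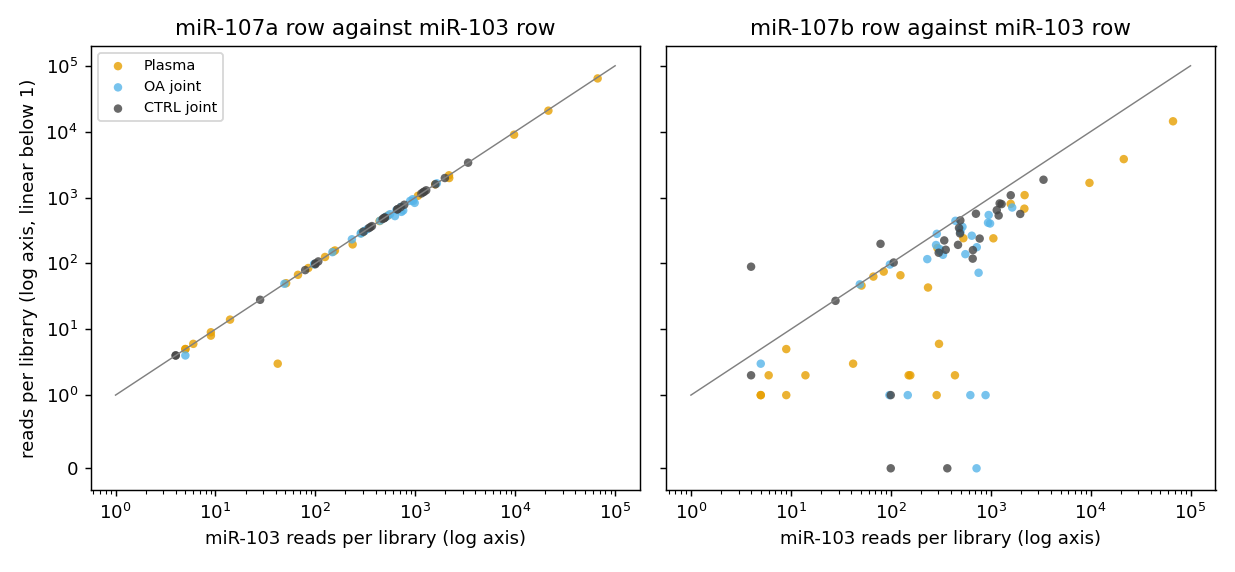
Reads of miR-107a (left) and miR-107b (right) against reads of miR-103 in each of 78 libraries, on log axes with a linear stretch below 1 read; the line marks equal counts and colours mark the fluid. miR-107a lies on or just under the line with 1 clear exception, at 42 and 3 reads, while miR-107b spreads below it, with 13 libraries at 6 reads or fewer where miR-103 had at least 90.

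miR-103 had a read in all 78 libraries, as did 8 other microRNA names. It was the microRNA with rank 12 by total reads. Within single libraries its median rank was 13.5 in plasma, 22 in OA-joint fluid and 16.5 in CTRL-joint fluid. In plasma its lowest, median and highest levels were 485, 9990 and 37473 CPM (n = 26 libraries). In OA-joint fluid they were 209, 9829 and 28972 CPM, and in CTRL-joint fluid 296, 14350 and 32716 CPM. The 3 fluids overlapped over nearly their whole range. Levels of at least 20000 CPM were reached in 11 plasma, 4 OA-joint and 6 CTRL-joint libraries, and levels under 2000 CPM in 6 plasma, 3 OA-joint and 2 CTRL-joint libraries, so plasma held more of both extremes. Relative to the library total in place of the microRNA reads, the medians were 38.7 RPM (reads scaled to 1000000 of the library total) in plasma, 54.8 in OA-joint fluid and 74.8 in CTRL-joint fluid. In such mixed samples fewer vesicles from a cell type and less of the microRNA in each vesicle cannot be told apart.

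miR-107b had medians of 4670 CPM in plasma, 4169 CPM in OA-joint fluid and 7132 CPM in CTRL-joint fluid. Its highest level was 20747 CPM in plasma, 12409 CPM in OA-joint fluid and 18024 CPM in CTRL-joint fluid, and it was at 0 reads in 1 OA-joint and 2 CTRL-joint libraries. Its SDs were 5883 CPM in plasma, 4230 CPM in OA-joint fluid and 5054 CPM in CTRL-joint fluid, around means of 5159, 5002 and 7397 CPM. For miR-103 the SDs were 13350, 7378 and 8727 CPM, around means of 15811, 11616 and 14309 CPM. So miR-107b varied less in CPM, but more relative to its lower mean, in each fluid. Under 2000 CPM of it were held by 12 plasma, 8 OA-joint and 4 CTRL-joint libraries.

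**Figure D2:**
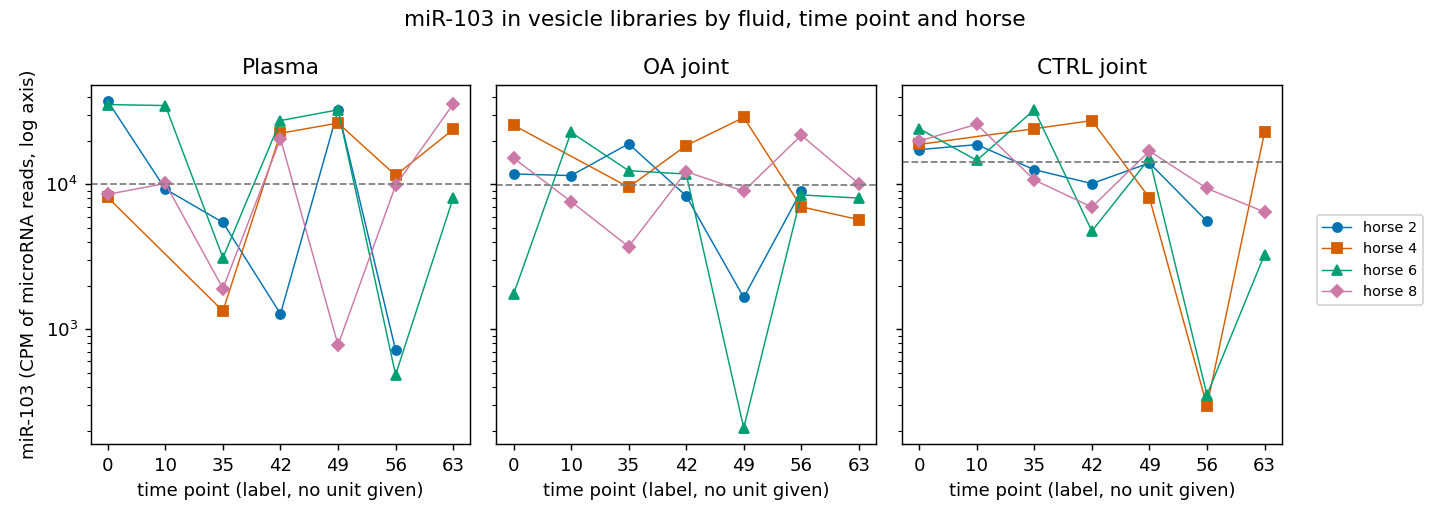
miR-103 in CPM of microRNA reads (log axis) in each library by time point, in plasma, OA-joint and CTRL-joint fluid, with 1 colour and marker per horse, lines joining the libraries of a horse and a dashed line at the median of the fluid. Plasma runs from 485 to 37473 CPM, and the lowest joint values are 209 CPM in the OA joint at time point 49 and 296 and 353 CPM in the CTRL joint at time point 56.

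Plasma was compared with each joint on counts summed per horse, so that the animal is the replicate, with edgeR's quasi-likelihood test over all 126 names that passed a filter on low counts and with Benjamini-Hochberg adjustment at 0.05. The miR-103 and miR-107a counts were higher in plasma than in OA-joint fluid, and miR-107b did not pass the test. The sums of miR-103 were 29598, 18360, 32749 and 34897 CPM in plasma of horses 2, 4, 6 and 8, against 9641, 14878, 11476 and 11608 CPM in their OA-joint fluid. Plasma was higher in 4 of 4 horses, and the lowest plasma sum lay above the highest OA-joint sum. The means were 28901 ± 7357 CPM in plasma and 11901 ± 2178 CPM in OA-joint fluid (SD, n = 4). The log2 fold change was 1.71 (SE 0.26, 95% interval 1.13 to 2.29, edgeR adjusted p = 0.000731), and for miR-107a it was 1.71 (adjusted p = 0.000731). For miR-107b, which had 5956 ± 2289 CPM in plasma and 4583 ± 1556 CPM in OA-joint fluid, it was 0.81 (SE 0.43, adjusted p = 0.256). In this comparison 2 of 3 members were thus called, where 24.6% of all tested names were, and the 2 are the pair with nearly shared counts, so that they are no separate calls. DESeq2 called the same pair, where it called 27% of all names.

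That difference depended on how libraries of unequal depth were weighted and scaled. In 3 of the 4 horses a single microRNA-rich plasma library carried most of the sum: it held 77.8% of the plasma miR-103 reads of horse 2, 83.7% of those of horse 6 and 98.8% of those of horse 8. Without these 3 libraries the plasma sums were 17066, 18360, 24555 and 11206 CPM, and horse 8 then lay below its OA-joint sum of 11608 CPM. The log2 fold change was then 1.01 (adjusted p = 0.0364), and 0.97 with the horse as a block (adjusted p = 0.207). With each library weighted equally and TMM scaling (a correction for differences in composition) it was 0.94 (limma adjusted p = 0.124). The exact two-sided permutation test of that single value gave p = 0.0286, the smallest that 4 against 4 allows. That test shuffled the horse means freely between the fluids and did not keep the pairing by horse. Without TMM scaling the log2 fold change was -0.03 (limma adjusted p = 0.96), against a median of -1.81 over the 58 names tested there. The mean of the libraries of each horse, with no such scaling, was 14473, 15663, 20358 and 12536 CPM in plasma, against 10230, 15903, 9366 and 11380 CPM in OA-joint fluid. Library against library, plasma was above the OA joint of the same horse and time point in 13 of 26 pairs and below it in 13.

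**Figure D3:**
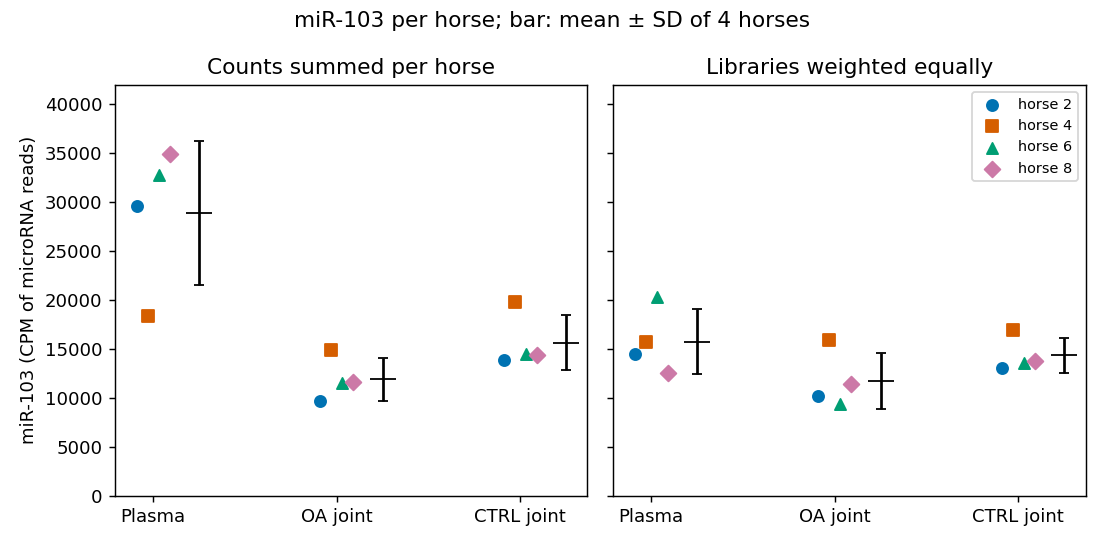
miR-103 per horse in plasma, OA-joint and CTRL-joint fluid, in CPM of microRNA reads, from counts summed over time points (left) and from the mean of the libraries (right); bars give the mean and SD of 4 horses. The plasma mean is 28901 CPM on the left and 15758 CPM on the right, while the joints stay between 11720 and 15659 CPM on both.

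Against CTRL-joint fluid the plasma difference was smaller. The miR-103 sums in plasma given above stood against 13858, 19828, 14535 and 14416 CPM in CTRL-joint fluid of horses 2, 4, 6 and 8, with a mean of 15659 ± 2795 CPM (SD, n = 4). Plasma was higher in 3 of 4 horses and lower in horse 4. The log2 fold change was 0.96 (SE 0.34, 95% interval 0.22 to 1.69, edgeR adjusted p = 0.0624), and 0.90 for miR-107a (adjusted p = 0.0841). For miR-107b, with 5956 ± 2289 CPM in plasma and 7823 ± 1609 CPM in CTRL-joint fluid, it was -0.33 (SE 0.44, adjusted p = 0.726). So 0 of 3 members were called with edgeR, where 21.4% of all tested names were; 2 of 3 had an unadjusted p under 0.05, against 37 of the 126 names, and DESeq2 called the same pair, where it called 27.8% of all names, with 1.23 for miR-103 (adjusted p = 0.00713). Without horse 4 the miR-103 change was 1.56 (edgeR adjusted p = 0.0125). With equal weights and TMM scaling it was 0.79 (limma adjusted p = 0.148, exact permutation p = 0.0286 with no pairing by horse). With no scaling it was -0.24 (limma adjusted p = 0.627), against a median of -1.41 over the names tested there. Pairs of libraries of the same horse and time point had plasma above the CTRL joint in 14 of 26 and below it in 12. All plasma libraries were of lane 1, and with the CTRL-joint libraries of that lane alone the change was 2.23 (adjusted p = 0.306). Only horses 2, 4 and 6 had such CTRL-joint libraries. Those of horses 2 and 4 were a single library each, at time point 56, with 5570 CPM and with 296 CPM on 4 reads. Those of horse 6 also included time point 56, with 353 CPM. The part of these low libraries in the change was not tested. No lane 1 value could be had for the OA joint, whose 2 libraries of lane 1 came from 1 horse, so there lane and fluid cannot be told apart.

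Within plasma miR-103 was high in most libraries of at least 40000 microRNA reads, which differed from the others in their median shares of cellular microRNAs. In the 3 microRNA-rich libraries it was 37473 CPM in horse 2 at time point 0, 35017 CPM in horse 6 at time point 10 and 35823 CPM in horse 8 at time point 63. The other 23 plasma libraries ran from 485 to 35550 CPM, with a median of 9278 CPM. Among the 8 plasma libraries with at least 40000 microRNA reads the median was 32668 CPM, 7 of them had at least 23926 CPM, and the exception was horse 2 at time point 35 with 5460 CPM. The 9 libraries with 10000 to under 40000 microRNA reads had a median of 8542 CPM, and the 9 with fewer had 8067 CPM. The same 3 classes, from deep to shallow, had median shares of platelet microRNAs of 18.1%, 3.25% and 3.34%, and of erythrocyte microRNAs of 16.3%, 58.1% and 51.9%. By these medians deep plasma libraries were high in miR-103 and the platelet list and low in the erythrocyte one. The platelet list held miR-126-3p, miR-126-5p, miR-221, miR-222, miR-223 and miR-24, and the miR-126 arms alone made up the endothelial list. The myeloid list, which shares miR-223, took only 0.0400%, 0.192% and 0.211% in the 3 microRNA-rich libraries, under the plasma median of 0.574%. Over the 26 plasma libraries the Spearman correlation with miR-103 was 0.60 for the platelet list and 0.54 for the fibroblast and mesenchymal list. It was 0.43 for the endothelial and the lymphocyte list, -0.65 for the erythrocyte list and between these values for the other lists. The part of these lists in the plasma levels was not tested. In OA-joint fluid the median was 10800 CPM in the 16 libraries with at least 40000 microRNA reads and 9011 CPM in the 10 below that. In CTRL-joint fluid it was 14350 CPM in 12 libraries of at least 40000 and 15098 CPM in 13 with 10000 to under 40000.

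**Figure D4:**
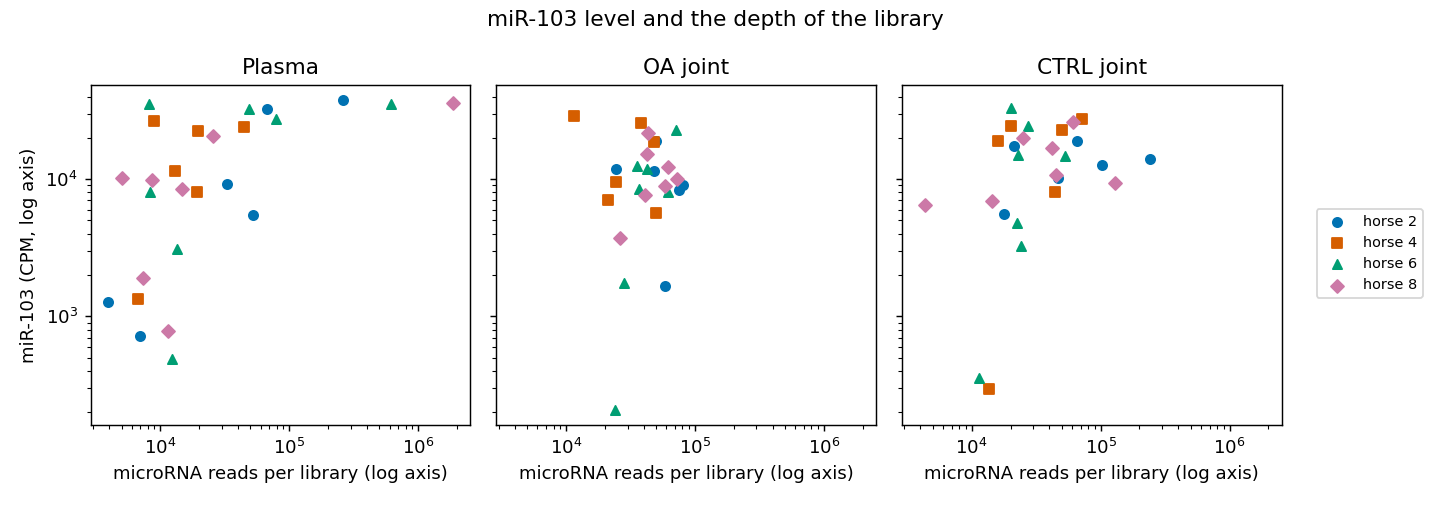
miR-103 in CPM of microRNA reads against the number of microRNA reads in each library (both log axes), for plasma, OA-joint and CTRL-joint fluid, with 1 colour and marker per horse. In plasma 7 of the 8 libraries with at least 40000 microRNA reads lie at 23926 CPM or above, while shallower plasma libraries spread from 485 to 35550 CPM.

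The joints were compared after time point 0, the first label of the series, to set the OA joint against the other joint of the same animals. No member passed the test. The miR-103 sums were 9472, 12202, 12482 and 11104 CPM in OA-joint fluid of horses 2, 4, 6 and 8, against 13700, 19904, 12805 and 13948 CPM in CTRL-joint fluid. The OA joint was lower in each of the 4 horses on this scale, by a small amount in horse 6. With the TMM scaling of the test horse 6 was higher in the OA joint, at 12444 against 11271 CPM, and with equal weights horses 4 and 6 were. Of the 22 pairs of libraries after time point 0 the OA joint was higher in 11 and lower in 11. The means were 11315 ± 1365 CPM in OA-joint fluid and 15089 ± 3247 CPM in CTRL-joint fluid (SD, n = 4), and the log2 fold change was -0.43 (SE 0.26, 95% interval -0.98 to 0.13, edgeR adjusted p = 0.749). The change for miR-107a was -0.47 (adjusted p = 0.682). For miR-107b the sums were 2184, 2866, 7151 and 4208 CPM in OA-joint fluid, against 7758, 8704, 5733 and 8663 CPM in CTRL-joint fluid. It was lower in the OA joint in 3 of 4 horses and higher in horse 6, with a log2 fold change of -0.95 (SE 0.40, adjusted p = 0.418, unadjusted p = 0.0321). Here edgeR called 0% of 117 tested names, 10 had an unadjusted p under 0.05, and DESeq2 called 4 names (3.42%), 0 of them members. With equal weights the miR-103 change was -0.01 (limma adjusted p = 0.977), without time point 56 it was -0.68 (edgeR adjusted p = 0.239), and with the libraries of lane 2 alone it was -0.78 (adjusted p = 0.809). In lane 2 the CTRL-joint fluid of horse 6 after time point 0 was a single library. This was time point 35, with 32716 CPM, the highest of the CTRL-joint levels. The part of that library in the change was not tested.

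CTRL-joint libraries of lane 1 were lower in miR-103 than those of lane 2, with medians of 5166 CPM (n = 8) and 17183 CPM (n = 18). Of these 8 libraries, 6 came from horse 6 and 3 from time point 56, so lane, animal and time cannot be told apart. Its part in the joint values was not tested beyond the lane 2 value above and a fit with lane as a covariate.

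At single time points the joints were compared in 1 fit of all 52 synovial fluid libraries. At time point 0 miR-103 had 11801, 25632, 1743 and 15181 CPM in OA-joint fluid of horses 2, 4, 6 and 8, against 17378, 18875, 24259 and 19951 CPM in CTRL-joint fluid. At time point 10 it had 11505, 22878 and 7617 CPM in OA-joint fluid of horses 2, 6 and 8, against 18817, 14642 and 25990 CPM in CTRL-joint fluid. At time point 35 it had 19067, 9564, 12437 and 3717 CPM in OA-joint fluid of horses 2, 4, 6 and 8, against 12632, 24233, 32716 and 10729 CPM in CTRL-joint fluid. In these 3 time points the OA joint was lower in 3 of 4, 2 of 3 and 3 of 4 horses, and the groups overlapped each time. At time point 42 miR-103 had 8331, 18534, 11792 and 12244 CPM in OA-joint fluid of horses 2, 4, 6 and 8, against 10133, 27569, 4762 and 6971 CPM in CTRL-joint fluid. At time point 49 it had 1659, 28972, 209 and 8980 CPM in OA-joint fluid, against 14058, 8071, 15098 and 16987 CPM in CTRL-joint fluid of the same horses. The OA joint was lower in 2 of 4 horses at time point 42 and in 3 of 4 at time point 49, where OA-joint fluid held both the highest and the lowest of the 8 values. That lowest value rested on 5 reads, with an exact 95% binomial interval of 67.7 to 487 CPM.

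At time point 56 the order was the same in every animal. miR-103 had 9015, 7005, 8458 and 21826 CPM in OA-joint fluid of horses 2, 4, 6 and 8, against 5570, 296, 353 and 9378 CPM in CTRL-joint fluid. The OA joint was higher in 4 of 4 horses, although the groups overlapped, since CTRL-joint fluid of horse 8 lay above 3 of the OA-joint values. The values of horses 4 and 6 in the CTRL joint rested on 4 reads each, with exact 95% intervals of 80.6 to 758 CPM and 96.1 to 903 CPM. At time point 63 miR-103 had 5711, 8044 and 10095 CPM in OA-joint fluid of horses 4, 6 and 8, against 22842, 3275 and 6449 CPM in CTRL-joint fluid, and the OA joint was lower in 1 of 3 horses.

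None of these differences passed the test. The log2 fold changes of miR-103 were -0.68, -0.40, -0.92, -0.02, -0.90, 1.16 and -0.37 at time points 0, 10, 35, 42, 49, 56 and 63, with SEs between 0.99 and 1.15 and edgeR adjusted p-values between 0.776 and 1. At each time point 0 of 3 members were called by edgeR and by DESeq2, and 0 of 3 had an unadjusted p under 0.05. At time point 35 edgeR called 0.719% of the 139 tested names, and at the other 6 it called 0%, with 3 to 24 names at an unadjusted p under 0.05. DESeq2 called 10.1%, 10.1%, 12.9%, 13.7%, 12.2%, 14.4% and 7.91% of the names from time point 0 to 63. At time point 56 the change of miR-103 was 1.16 (SE 1.01, 95% interval -0.84 to 3.16, edgeR adjusted p = 0.779). There 3 of 4 CTRL-joint and 0 of 4 OA-joint libraries were of lane 1. The erythrocyte share was 5.22% to 12.2% in the OA joint and 5.06% to 22.4% in the CTRL joint, and the platelet share 1.61% to 4.06% in the OA joint and 0.429% to 3.02% in the CTRL joint; their part in the difference was not tested.

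miR-107b gave no steadier picture between the joints. Its library pairs had the OA joint above the CTRL joint in 10 of 26 and below it in 16, and at time point 63 it was lower in the OA joint in 3 of 3 horses, with 3821, 5325 and 2447 CPM in OA-joint fluid of horses 4, 6 and 8 against 12741, 8209 and 6218 CPM in CTRL-joint fluid. Those groups did not overlap, yet the log2 fold change was -1.17 with an SE of 1.78 (edgeR adjusted p = 0.9998). For miR-103 the OA joint was above the CTRL joint in 12 of 26 pairs and below it in 14.

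**Figure D5:**
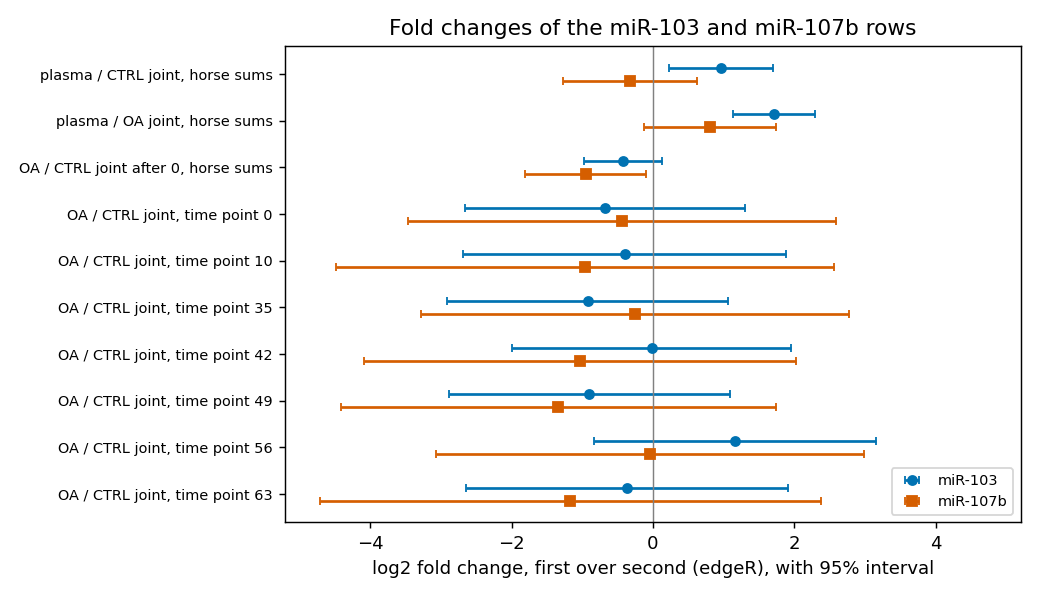
Log2 fold changes of miR-103 (circles) and miR-107b (squares) from edgeR with 95% intervals, for plasma over each joint, for the OA joint over the CTRL joint after time point 0, and for the OA joint over the CTRL joint at each time point. The plasma over OA-joint interval of miR-103, 1.13 to 2.29, lies clear of 0. So do those of miR-103 for plasma over the CTRL joint and of miR-107b between the joints after time point 0, neither of which was called. The intervals are not adjusted for the number of names tested, and those at single time points span 0 for both microRNAs.

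Over time no member passed the test in any fluid. In OA-joint fluid the means were 13590, 14000, 11196, 12725, 9955, 11576 and 7950 CPM from time point 0 to 63, with SDs from 2193 to 13247 CPM, and the F-test of the 6 changes against time point 0 gave an edgeR adjusted p of 1 for miR-103. edgeR called 0% of 139 names there. In CTRL-joint fluid the means were 20116, 19816, 20078, 12359, 13553, 3899 and 10855 CPM (adjusted p = 0.719, with 0% of 139 names called). The 3 earliest CTRL-joint means were the highest in synovial fluid and that of time point 56 was the lowest, at a log2 change of -1.998 from time point 0 (SE 1.03, 95% interval -4.04 to 0.05, edgeR adjusted p = 0.273), which DESeq2 called (-2.17, adjusted p = 0.0373) among 15.1% of the 139 names. At time point 56, 4 of 4 CTRL-joint values lay below the lowest value of time point 0, which was 17378 CPM. The CTRL-joint share of platelet microRNAs was 0.429% to 3.02% at time point 56 and 5.68% to 11.7% at time point 0, and that of mesenchymal microRNAs 22.9% to 29.6% at time point 56 and 10.5% to 17.6% at time point 0, with no overlap in either. Of the CTRL-joint libraries, 3 of 4 at time point 56 and 1 of 4 at time point 0 were of lane 1. The part of these shares in the change was not tested, nor that of lane beyond a fit with lane as a covariate. For miR-103 the test of a difference between the joints in their change over time was not passed (edgeR adjusted p = 1, with 0.719% of 139 names called). In each of these 3 tests 0 of 3 members had an unadjusted p under 0.05, against 45, 46 and 29 names in all, and DESeq2 called 0 of 3 members, with 0%, 1.44% and 0.719% of all names.

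Plasma varied more than the joints, with an SD over its libraries of 13350 CPM, against 7378 CPM in OA-joint and 8727 CPM in CTRL-joint fluid. At time points 0 and 10 miR-103 had 37473, 8122, 35550 and 8542 CPM in horses 2, 4, 6 and 8 and then 9278, 35017 and 10147 CPM in horses 2, 6 and 8. At time point 35 it had 5460, 1338, 3116 and 1911 CPM in horses 2, 4, 6 and 8, the group with the lowest mean of the 21, at 2956 ± 1826 CPM (SD, n = 4). It was then below both joints of the same animal in 4 of 4 horses. At time point 42 the values were 1277, 22530, 27569 and 20719 CPM, and at time point 49 they were 32633, 26511, 32704 and 779 CPM, the group with the highest mean, at 23157 ± 15198 CPM. Horse 2 at time point 42 and horse 8 at time point 49 stood far below the other 3, with 5 and 9 reads of miR-103. At time point 56 the values were 719, 11553, 485 and 9833 CPM, and at time point 63 they were 23926, 8067 and 35823 CPM in horses 4, 6 and 8. The F-test over time gave an edgeR adjusted p of 0.986 for miR-103 and of 0.5997 for miR-107b. So 0 of 3 members were called, where 10.9% of the 92 tested names were. An unadjusted p under 0.05 was held by 0 of 3 members, against 25 of the 92 names. DESeq2 called 0 of 3 members and 0% of all names. At time point 35 miR-107b was at 19.0, 149, 223 and 273 CPM in plasma of horses 2, 4, 6 and 8, on 1, 1, 3 and 2 reads, and the erythrocyte share there was 45.9% to 78.8%, whose part in these levels was not tested.

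Ordered by their mean miR-103 level, the 21 groups of fluid and time point ran from plasma at time point 35 to plasma at time point 49. Of the 20 steps between neighbours in that order, 19 were smaller than the smaller SD of the 2 groups. The exception was the step of 2302 CPM from OA-joint fluid at time point 63, at 7950 ± 2193 CPM, to plasma at time point 56, at 5648 ± 5869 CPM. Ordering 21 groups by their means itself makes such steps small, so they do not tell whether groups differ.

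The miR-15/16 family, known in mammals to share a short stretch near the 5′ end with miR-103 and miR-107, was set beside them. Of 9 names on that list 7 had an entry, and only miR-16, which restrains the cell cycle and is also abundant in red blood cells, was read widely, in 25 of 26 plasma and in all 52 joint libraries. Its median was 7671 CPM in plasma, 13592 CPM in OA-joint fluid and 15375 CPM in CTRL-joint fluid. In plasma against CTRL-joint fluid 1 of 3 tested relatives was called, where 21.4% of all names were. miR-16 was lower in plasma, with a log2 fold change of -1.80 (SE 0.45, edgeR adjusted p = 0.0109), while miR-103 in the same fit stood at 0.96. That call was lost without horse 2 (-0.97, adjusted p = 0.174), horse 6 (-1.64, adjusted p = 0.0649) or horse 8 (adjusted p = 0.0526), without the microRNA-rich plasma libraries (-0.74, adjusted p = 0.488) and with equal weights (limma -0.78, adjusted p = 0.272). miR-15a, in humans from the same primary transcript as miR-16, had a read in 4 plasma, 5 OA-joint and 8 CTRL-joint libraries, and a log2 fold change of -3.68 (SE 2.25, adjusted p = 0.291). Plasma against OA-joint fluid called 0 of 3 relatives (miR-16 at -0.78, adjusted p = 0.108), and the comparison of the joints after time point 0 called 0 of 3 (miR-16 at -0.67, adjusted p = 0.682). Whether the change of miR-16 differed from that of miR-103 was not tested.

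In the CTRL joint at time point 56 miR-16 was low together with miR-103. It had 2117, 518, 88.2 and 1326 CPM in horses 2, 4, 6 and 8, where CTRL-joint fluid at time point 0 had 16103, 16313, 16697 and 30469 CPM. The platelet and mesenchymal shares and the lanes that differed between the same libraries, given above, apply here too. The log2 change was -4.06 (SE 0.96, edgeR adjusted p = 0.00733), 0.719% of the 139 names being called in that contrast. The call was lost without horse 4 (-3.80, adjusted p = 0.132), horse 6 (-3.84, adjusted p = 0.0942) or horse 8 (-3.50, adjusted p = 0.166). The F-test over all time points gave an adjusted p of 0.0888. The OA joint at time point 56 had 8890, 17512, 12208 and 6866 CPM of miR-16, against those CTRL-joint values a log2 fold change of 3.21 (SE 0.92, adjusted p = 0.106).

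By the Pearson correlation of log2 CPM with miR-103 over the 78 libraries, a description of libraries that share animals and depth, miR-107a stood at 0.97 and miR-107b at 0.44 among 159 names. The 5 other names most like miR-103 were miR-29a, a repressor of collagen genes, at 0.39, miR-27b at 0.38, miR-101 at 0.35, miR-138 at 0.35 and the endothelial microRNA miR-126-3p at 0.34. Of these, miR-138 had a read in only 13 libraries. All 5 values are weak, and they changed between fluids: for miR-29a the correlation was 0.51 in plasma, 0.43 in OA-joint fluid and 0.17 in CTRL-joint fluid. For miR-16 it was 0.18 in plasma, -0.28 in OA-joint fluid and 0.70 in CTRL-joint fluid.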

How the data were processed

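Per the labels' protocols, the TriLink CleanTag kit served to build the small RNA libraries. The submitters' processing notes name cutadapt, Bowtie, edgeR and the build EquCab3.0, and no version or setting is given in these sources. The authors' deposited whole-number read counts of 690 horse microRNA names were the basis of every test. The deposited RPM column, reads scaled to 1000000 of a library total, served to recover library totals and for levels on that scale. CPM was computed as reads scaled to 1000000 microRNA reads, and spike-in reads stayed out.

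Fits over all names used edgeR 4.0.16 (quasi-likelihood F-test, TMM, filterByExpr with a count minimum of 10, Benjamini-Hochberg at 0.05) in R 4.3.3. Counts were summed per horse for plasma against each joint (all time points) and for OA against CTRL (after time point 0). The 52 joint libraries formed 1 fit of 14 groups, and the 26 plasma libraries 1 fit of 7. Alternatives used limma 3.58.1, DESeq2 1.42.0 and exact permutation tests, which did not keep the pairing by horse. Scripts were tested on simulated data, where tests over time called some unchanged names. Log2 CPM for correlations and limma used a prior count of 2.

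The same horse gave all fluids, so the horse pairs the samples; same-horse deviations from group means correlated between -0.19 and 0.11. Named were the 3 members, the miR-15/16 list (those called and the 2 with most reads) and the 5 names most correlated with miR-103. Members and lists were chosen with earlier results of these data known.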

Additional observations from a re-analysis of the deposited data

Results flagged for a closer look

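Among 48 sets of 4 values of miR-103 or miR-107b, 5 held a value far from the other 3. Chance gives about 1 in 20 for separate sets. These sets share libraries, some as single values and again in sums per horse, so that rate is no measure of the 5. miR-103 in OA-joint fluid at time point 56 was 21826 CPM in horse 8, against 7005 to 9015 CPM in the other horses. miR-107b in plasma at time point 56 was 8677 CPM in horse 8, on 75 reads, against 144 to 162 CPM in the others. miR-107b in OA-joint fluid at time point 42 was 7104 CPM in horse 6, against 13.3 to 1165 CPM in the others. The miR-103 counts summed per horse in CTRL-joint fluid gave 19828 CPM in horse 4, against 13858 to 14535 CPM in the others, and 19904 CPM after time point 0, against 12805 to 13948 CPM.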

How the results depend on the processing

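Of 199 alternative values for the 14 miR-103 results, 173 kept their side of the threshold and, where there was one, their direction. The tests over time give no direction, and a result that stayed uncalled counts as kept. Of the rest, 3 lost and 6 gained the call and 17 reversed. For miR-107a the counts were 160, 3, 4 and 12 of 179, and for miR-107b 160, 0, 0 and 19 of 179. The causes were not tested.

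Plasma against OA-joint fluid stayed called for miR-103 with RLE, without scaling, without a filter, with DESeq2, with the replicate block (1.70, adjusted p = 0.000968), without libraries under 10000 microRNA reads and without each horse in turn (1.41 to 1.95). It was lost with the replicate block without the 3 microRNA-rich libraries (0.974) and with equal weights (limma 0.940, also with the block), though the exact permutation test of that value, with no pairing by horse, gave p = 0.0286, the smallest it allows. With equal weights and no scaling, chosen after seeing the data, it was -0.029 (miR-107a -0.14, miR-107b -0.373), also with the block and, for miR-103, in the exact permutation test (p = 0.971). Relative to the median of all tested names, which moved with scaling from 0.11 to -0.31 between TMM and no scaling, miR-103 was 1.61 higher with TMM, 1.59 higher without scaling, 0.842 higher without the microRNA-rich libraries and 0.837 higher with no filter.

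Plasma against CTRL-joint fluid became called for miR-103 with RLE (1.15), DESeq2 (1.23), the largest member count (1.26), libraries of at least 10000 microRNA reads (1.03) and the exact permutation test with no pairing by horse (0.786, p = 0.0286, the smallest it allows), and without each horse in turn it ran from 0.75 to 1.56. With equal weights and no scaling it was -0.242 in limma, with or without the block, and in the permutation test (miR-107a -0.406). miR-107b reversed in lane 1 alone (0.949), without the microRNA-rich libraries (0.26, with the block 0.126) and on leaving out a horse (-0.442 to 0.328). edgeR's calls there were 13 higher and 14 lower, DESeq2's 22 and 13.

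Between the joints at single time points, where nothing was called, miR-103 at time point 42 turned positive with DESeq2 (0.205), lane as a covariate (0.113), the largest member count (0.43), no filter (0.441), no scaling (0.0414), only the 2 groups compared (0.151) and the replicate block (0.0789), and miR-107a with DESeq2 (0.0953), lane (0.024), no filter (0.33) and only the 2 groups (0.0312). Leaving out a horse, miR-103 ran from -1.17 to 0.000825 at time point 10, -0.117 to 1.06 at 42 and -0.923 to 1.17 at 63, and miR-107a to 0.000825 at 10, from -0.189 to 0.901 at 42 and from -1.04 to 1.02 at 63. miR-107b reversed at time point 0 with the block (0.026) and, on leaving out a horse, at time points 0 (-0.956 to 0.674), 35 (-0.567 to 0.121) and 42 (-3.32 to 0.445), and at 56 with RLE (0.392), lane (0.125), deeper libraries (0.23), no filter (0.151), no scaling (0.367), only the 2 groups (0.653), and on leaving out a horse (-0.693 to 1.51).

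For miR-16, plasma against CTRL was lost in 8 of 18 alternatives, also with the largest member count (-1.42), and was 0.748 in lane 1 alone. OA against CTRL after time point 0 turned positive with equal weights (0.477, without scaling 0.417, each also with the block), and plasma against OA became called in 4 of 17. In CTRL fluid at time point 56 against 0, 12 alternatives gave miR-16 from -4.82 to -3.48 and miR-103 from -2.56 to -1.42, which DESeq2 alone called (-2.17, adjusted p = 0.0373).

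Counts of calls over all names moved by over 1.5 times in several settings. Plasma against CTRL fell from 27 to 2 without the microRNA-rich libraries (also with the block), 0 in lane 1, 9 without horse 6 and 8 without horse 8; plasma against OA from 31 to 12 with the block without those libraries. OA against CTRL after time point 0 went from 0 to 4 (DESeq2), 5 (no filter) and 3 (replicate block). At time points 0 to 63 DESeq2 called 14, 14, 18, 19, 17, 20 and 11; the 1 call at 35 was lost with only the 2 groups or without any horse, and no scaling gave 1 at 56. CTRL over time went from 0 to 2 (DESeq2), 6 (deeper libraries), 1 (no filter, no scaling), 9 (block) and 3 (without horse 2); OA over time from 0 to 40 (deeper libraries) and 46 (no filter); the difference of the time courses from 1 to 2 (block), 0 (without horse 4 or 6) and 3 (without horse 8). Plasma over time went from 10 to 0 (DESeq2, block), 1 (deeper libraries, RLE, without horse 8), 35 (no filter) and 3 (without horse 2 or 4). The replicate block changed no other call of a member. Depth limits the shallow libraries, 9 of the 10 with under 10000 microRNA reads being plasma; miR-103 rests on as few as 5 reads in plasma, 5 in OA-joint and 4 in CTRL-joint fluid.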
